A study of Mus musculus with 6 samples.

Results

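The genes described here are the solute carrier (SLC) genes of wild-type (WT) mice, measured in peritoneal B-1a cells and B-1b cells after sorting. They were chosen by name alone, as every gene of the table whose symbol starts with Slc, a family number, the letter a and a member number. The rule found 109 of the 7834 gene names in the table, of which 105 are transporters from 39 SLC families. The other 4 names match the pattern without being transporters and were kept as a group of their own. They are Slc4a1ap, Slc7a6os and the scaffold proteins Slc9a3r1 and Slc9a3r2. B-1 cells are innate-like B cells that live mainly in the serous cavities and secrete natural IgM. B-1a cells carry CD5 on their surface and B-1b cells do not. Both groups came from untreated C57BL/6 mice, which the study's methods give as males, and their age is not given in the sources used here. This comparison asked how the expression of genes differs between the 2 subsets at rest. The labels list 3 replicates per group, but the columns numbered 3 were arithmetically derived from the others, so 2 libraries of B-1a and 2 of B-1b were compared. Values are FPKM (fragments mapped, scaled to transcript length and library size), summed over all table rows of a gene.

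Solute carriers are membrane proteins that move small molecules across the plasma membrane and the membranes of organelles. Most are exchangers or are driven by ion gradients, and each family prefers a class of substrate such as sugars, amino acids, metal ions or nucleosides. The Slc25 family sits largely in the inner mitochondrial membrane and joins the cytosol to the respiratory machinery. In lymphocytes the glucose transporter Slc2a1, the amino acid transporters Slc1a5, Slc7a5 and Slc3a2 and the lactate transporter Slc16a1 are best known for their increase when cells are activated. Slc15a4 is known in B cells for its place in the endolysosome, where it is needed for responses through Toll-like receptors.

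The summed FPKM of all genes lay between 324330 and 366992 in the 4 libraries, and the solute carriers took 0.522% and 0.538% of it in B-1a and 0.608% and 0.527% in B-1b. B cell genes were present in every library, with Cd79a between 1384 and 2219 FPKM. Cd5, the gene of the marker that separates the subsets, was below 1 FPKM in all 4 libraries and overlapped between the groups, so the labels could not be checked against it. Ighm, the IgM heavy chain, stood at 32.5 and 38.7 FPKM in B-1a and at 2585 and 2781 FPKM in B-1b. Whether the table holds every row of Cd5 and Ighm could not be told from it, and every comparison of the groups below rests on the labels. Macrophage genes were also present. All 6 of the macrophage markers listed were in the table, their sum was 4503 and 3389 FPKM in B-1a against 4183 and 7198 in B-1b, and 4 of the 6 (Adgre1, Csf1r, Cd68 and Itgam) were higher in both B-1b libraries. Of the T cell markers 4 of 6 were in the table, with sums of 8.35 to 12.3 FPKM, and of the neutrophil markers 0 of 4. The platelet gene Pf4 was also higher in both B-1b libraries, with 136 and 106 FPKM in B-1a against 209 and 272 in B-1b, and its part in the results was not tested. In bulk samples, fewer cells of a type and less RNA per cell cannot be told apart.

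The regulatory sequences of 3 of the genes with an unadjusted p under 0.05 are shown first, since they stand for the glucose, lactate and amino acid transporters described further on. Each is the stretch of 250 bases before the RefSeq start site on GRCm38.p6, written 5′ to 3′ on the gene's own strand. Slc2a1 (chr4:119108495-119108744, plus strand) and Slc16a1 (chr3:104638414-104638663, plus strand) have a single start site in the table used. Slc7a7 (chr14:54417945-54418194, minus strand) has 5, of which the most upstream is shown. Capitals mark ACGTG, a core shared by hypoxia response elements and many E-boxes, for the first 2 genes and TGATGNAAN, the pattern of C/EBP-ATF response elements, for Slc7a7. In Slc16a1 the capitals span CACGTG, in which ACGTG is read on both strands. These motifs were chosen after the values of the genes were known.
Slc2a1: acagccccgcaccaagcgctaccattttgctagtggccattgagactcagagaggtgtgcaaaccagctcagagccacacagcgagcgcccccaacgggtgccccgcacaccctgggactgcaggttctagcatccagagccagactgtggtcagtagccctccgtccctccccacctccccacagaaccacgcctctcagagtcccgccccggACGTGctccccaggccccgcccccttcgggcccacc
Slc16a1: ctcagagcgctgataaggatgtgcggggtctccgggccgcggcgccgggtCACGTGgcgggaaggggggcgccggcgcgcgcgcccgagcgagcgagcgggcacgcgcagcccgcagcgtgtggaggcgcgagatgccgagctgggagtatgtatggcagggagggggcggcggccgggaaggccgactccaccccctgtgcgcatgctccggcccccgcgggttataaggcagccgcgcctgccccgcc
Slc7a7: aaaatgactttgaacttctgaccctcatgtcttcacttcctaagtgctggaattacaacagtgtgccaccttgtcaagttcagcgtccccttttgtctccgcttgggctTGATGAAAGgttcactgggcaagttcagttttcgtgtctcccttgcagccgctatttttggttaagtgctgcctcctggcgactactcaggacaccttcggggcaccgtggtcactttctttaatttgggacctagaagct
In Slc2a1 the match was at position -36 from the RefSeq start site, in Slc16a1 the matches on both strands were at -200 and -199, and in Slc7a7 the match was at -141. The start of Slc2a1 in the GENCODE M21 annotation, chr4:119108711, lies inside the window shown. Its position therefore holds for the RefSeq start site only.

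Windows of the solute carriers held the motifs at about the share seen over all windows. RefSeq windows were found for 85 of the 109 genes. ACGTG or its reverse complement CACGT occurred in 16.6% of the 32851 promoter windows of 250 bases and in 22 of the 118 windows of solute carriers (18.6%, from 20 genes). TGATGNAAN or its reverse complement NTTNCATCA occurred in 3.44% of all windows and in 4 of the 118 (3.39%). A match is a description of these letters and not a binding site.

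The most abundant solute carriers were carriers of mitochondria and of other organelles (see the plot of the genes with the highest mean FPKM). Slc25a5, the ADP/ATP carrier that exports ATP from mitochondria, held 387 and 406 FPKM in B-1a against 393 and 469 in B-1b. That was 21.9% of the FPKM of all solute carriers, and the groups overlapped. Slc25a3, the mitochondrial phosphate carrier, was second with 116 and 109 FPKM in B-1a against 85.8 and 103 in B-1b. Both of its B-1b libraries lay below both of B-1a. The Golgi zinc transporter Slc30a5 followed with 76.1 and 66.5 FPKM in B-1a against 61.3 and 65.8 in B-1b, and the histidine and peptide transporter Slc15a4 with 62.7 and 65.1 FPKM in B-1a against 63.6 and 66.3 in B-1b. Slc25a11, the oxoglutarate and malate exchanger, came next with 60.9 and 56.7 FPKM in B-1a against 63.9 and 64.2 in B-1b. Slc25a5 lay above Slc25a3, and Slc25a3 above Slc30a5, in every library, whereas the levels of Slc30a5, Slc15a4 and Slc25a11 overlapped each other. Slc15a4 was nearly equal in its sum, with a log2 fold change of 0.02 (SE 0.14).

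**Figure D1:**
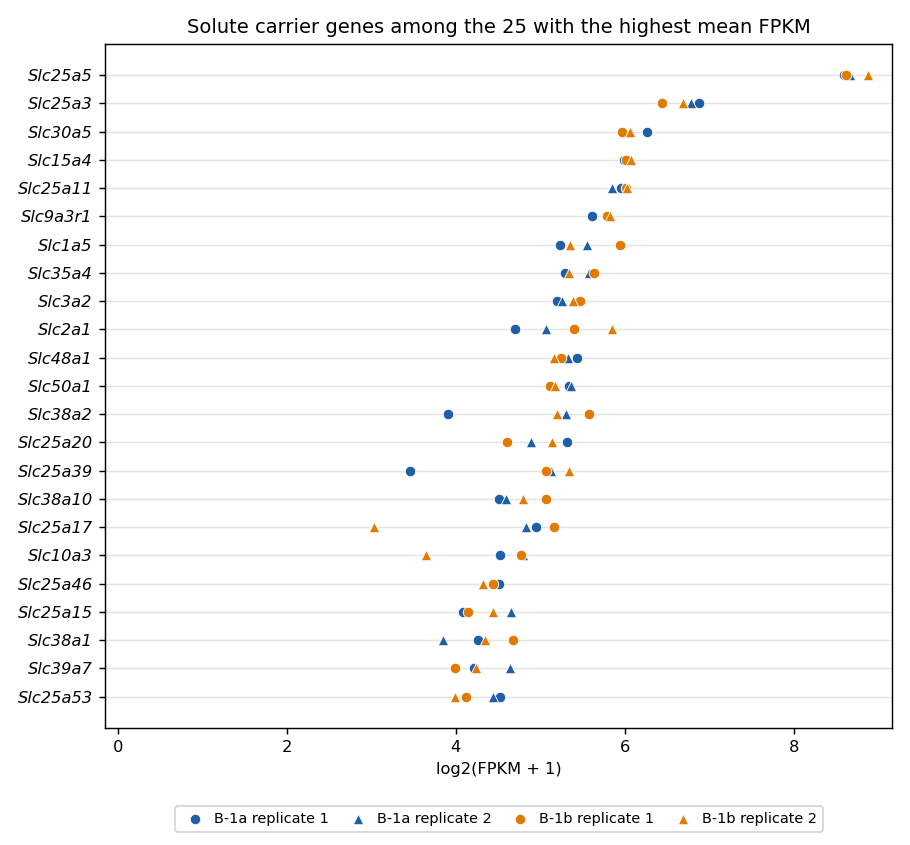
Level of solute carrier genes among the 25 with the highest mean FPKM, as log2(FPKM + 1) on the horizontal axis, in each B-1a library (blue) and B-1b library (orange), with circles for replicate 1 and triangles for replicate 2. Slc25a5 stands alone at the right, and for most genes the points of both groups lie close together, while Slc38a2, Slc25a39 and Slc25a17 each have 1 library far to the left.

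No solute carrier passed the test between B-1b and B-1a. The levels were compared with limma on log2(FPKM + 1), with Benjamini-Hochberg adjustment over the 7557 genes with at least 1 FPKM in 2 or more libraries, and 107 of the 109 solute carriers passed that filter. At an FDR below 0.05, limma called 0 of the 107 against 15 of all genes tested (0.198%), and the smallest adjusted p of a solute carrier was 0.319. At an unadjusted p under 0.05 limma had 7 of the 107 (6.54%), against 9.66% of all genes. Both B-1b libraries lay above both B-1a libraries for 27 of the 107 (25.2%), against 25.8% of all genes, and below them for 16, against 17.3%. These shares of the solute carriers were near or below those of all genes. On the log2 scale the median difference, B-1b minus B-1a, was 0.09 over the solute carriers and 0.05 over all genes, and the solute carriers ranged from -1.83 to 1.88. With 2 libraries per group an exact permutation test of a single gene cannot give a two-sided p below 0.333. Nothing says that the libraries came from separate animals, so the p-values measure only the spread between these libraries.

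Of the 7 genes with an unadjusted p under 0.05, 5 were higher and 2 were lower in both B-1b libraries, and they carry sugars, amino acids, metal ions, lactate, nucleotide sugars and fatty acids. By substrate group they were 2 transporters of sugars, 1 of amino acids, 1 of metal ions, 1 of nucleotide sugars and 2 of vitamins, lipids and organic ions, with 0 among the inorganic ion transporters and the mitochondrial carriers. On GRCm38, in the GENCODE M21 annotation, the genes that were higher lie at chr2:32972990-32982083 (Slc2a8), chr14:54369442-54417780 (Slc7a7), chr3:104638668-104658462 (Slc16a1), chr4:119108711-119137983 (Slc2a1) and chr1:74375195-74386062 (Slc11a1), and those that were lower at chr3:90385239-90389938 (Slc27a3) and chr16:45139573-45158706 (Slc35a5). Slc2a8, an intracellular glucose transporter of the GLUT family, was listed at 0 and had 0.665 FPKM in the B-1a libraries and 3.96 and 3.56 FPKM in the B-1b libraries (log2 fold change 1.88, SE 0.43, limma adjusted p = 0.319). It was a low gene in all 4 libraries, and with a pseudocount of 0.1 its log2 fold change was 3.80 with a limma adjusted p of 0.507. Slc7a7, which exports cationic amino acids in exchange for neutral ones, had 5.33 and 11.6 FPKM in B-1a against 27.9 and 22.8 in B-1b (log2 fold change 1.55, SE 0.39, limma adjusted p = 0.366). The mean of its B-1b libraries was 2.99 times that of B-1a, and the groups were well apart. Slc16a1, the monocarboxylate transporter MCT1 that carries lactate and pyruvate, had 4.74 and 6.27 FPKM in B-1a against 10.6 and 10.8 in B-1b (log2 fold change 0.85, SE 0.22, limma adjusted p = 0.366). Its B-1b libraries were nearly equal. Slc2a1, the glucose transporter GLUT1, had 25.1 and 32.6 FPKM in B-1a against 41.3 and 56.8 in B-1b (log2 fold change 0.74, SE 0.25, limma adjusted p = 0.477). It was the tenth most abundant solute carrier, and the libraries of each group also differed among themselves.

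Slc11a1, known as NRAMP1, moves iron and manganese out of phagosomes and is known best from macrophages. It had 12.6 and 11.3 FPKM in B-1a against 20.9 and 18.6 in B-1b (log2 fold change 0.67, SE 0.17, limma adjusted p = 0.366). The macrophage marker Adgre1 had 51.1 and 55.97 FPKM in B-1a against 90.4 and 101 in B-1b, Csf1r 28.5 and 22.8 against 39.7 and 35.1, Cd68 38.8 and 35.5 against 53.2 and 52.7, and Itgam 17.6 and 33.4 against 56.7 and 48.05. These 4 markers were high in the same libraries as Slc11a1, Slc7a7, Slc16a1, Slc2a1 and Slc2a8, and their part in the levels of these genes was not tested. The other 2 macrophage markers, Lyz2 (3238 to 6824 FPKM) and C1qa (4.03 to 137 FPKM), overlapped between the groups.

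The 2 genes that were lower were Slc27a3 and Slc35a5. Slc27a3, a fatty acid transport protein that acts as an acyl-CoA synthetase, had 23.6 and 18.5 FPKM in B-1a against 5.90 and 11.8 in B-1b (log2 fold change -1.22, SE 0.37, limma adjusted p = 0.437), and without B-1b replicate 1 the log2 fold change was -0.77. Slc35a5, a member of the nucleotide sugar transporter family of the Golgi, had 6.31 and 6.49 FPKM in B-1a against 3.00 and 4.07 in B-1b (log2 fold change -0.72, SE 0.25, limma adjusted p = 0.490). Its B-1a libraries were nearly equal in sum, but each of its 2 rows overlapped between the groups. Row 1 had 0.743 and 6.17 FPKM in B-1a against 0.957 and 2.26 in B-1b. Row 2 had 5.57 and 0.314 FPKM in B-1a against 2.04 and 1.81 in B-1b. Slc41a2, a magnesium transporter, had the most negative log2 fold change of the tested members, -1.83 (SE 0.71, limma adjusted p = 0.542), from 16.5 and 9.72 FPKM in B-1a against 1.05 and 6.28 in B-1b. Its B-1b libraries were far from each other.

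**Figure D2:**
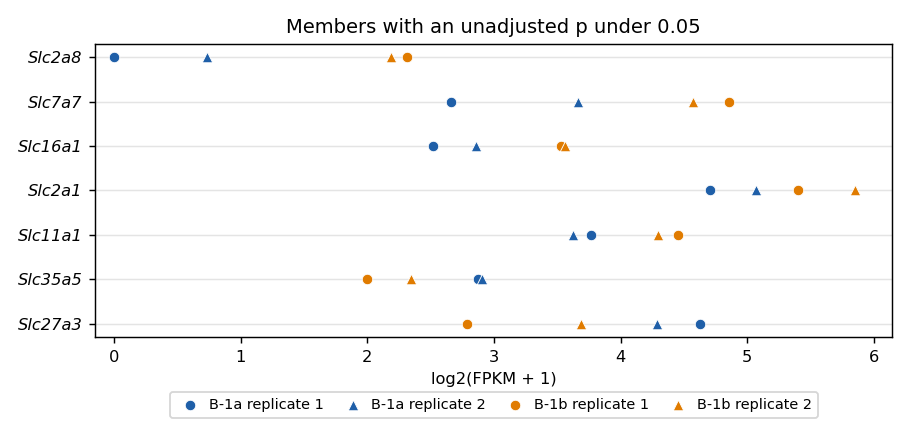
Level, as log2(FPKM + 1) on the horizontal axis, of the 7 solute carrier genes with an unadjusted limma p under 0.05 in each B-1a library (blue) and B-1b library (orange), with circles for replicate 1 and triangles for replicate 2. The orange points lie to the right of the blue ones for the upper 5 genes and to the left for Slc35a5 and Slc27a3, and no adjusted p was below 0.319.

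The amino acid and peptide transporters were the substrate group whose members leaned furthest to one side. All 17 were tested and limma called 0 of them. The log2 fold change was above 0 for 15 of the 17, against 56.2% of all genes tested, and the median was 0.37. Both B-1b libraries were above both B-1a libraries for 8 of the 17 and below for 2, against 25.8% and 17.3% of all genes. Summed over the group, FPKM was 258 and 293 in B-1a and 390 and 314 in B-1b, so B-1b replicate 2 lay closer to B-1a than to B-1b replicate 1. Of the 4 mast cell markers listed 3 were in the table (Cpa3, Fcer1a and Tpsb2). Their sum was 60.4 and 56.3 FPKM in B-1a against 115 and 54.5 in B-1b. This sum was highest in B-1b replicate 1, like that of the group, but lowest in B-1b replicate 2. The part of these markers, and of the 4 macrophage markers that were higher in both B-1b libraries, in the levels of the group was not tested. Without B-1b replicate 1 the median was 0.18, and 13 of 17 were above 0.

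Within this group, the Slc38 (SNAT) family of mostly sodium-coupled neutral amino acid transporters had log2 fold changes above 0 throughout. There were 5 in the table, with a median log2 fold change of 0.46, and 4 had both B-1b libraries above both of B-1a, against 25.8% of all genes. Slc38a1, which takes up glutamine and other small neutral amino acids with sodium, had 18.2 and 13.4 FPKM in B-1a against 24.6 and 19.4 in B-1b (log2 fold change 0.46, SE 0.24, limma adjusted p = 0.628). Slc38a10 had 21.9 and 23.2 FPKM in B-1a against 32.5 and 26.8 in B-1b, and Slc38a7 had 3.20 and 3.73 FPKM in B-1a against 7.19 and 4.22 in B-1b. In all 3 the libraries did not overlap, and B-1b replicate 1 was the highest. The lysosomal arginine sensor Slc38a9 was nearly level, with 3.05 and 2.63 FPKM in B-1a against 3.48 and 3.06 in B-1b. Slc38a2, the most abundant of the family, had 14.04 and 38.4 FPKM in B-1a against 46.5 and 35.8 in B-1b. Its log2 fold change of 0.78 (SE 0.52) rested on B-1a replicate 1, since B-1a replicate 2 lay between the B-1b libraries.

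The heavy chain Slc3a2 (CD98) carries the light chains Slc7a5 and Slc7a7 to the plasma membrane. Slc3a2 had 35.6 and 37.3 FPKM in B-1a against 43.2 and 40.7 in B-1b (log2 fold change 0.20, SE 0.14, limma adjusted p = 0.703). Both B-1b libraries were higher, by little. Slc7a5, the large neutral amino acid transporter LAT1, had 9.61 and 15.1 FPKM in B-1a against 20.1 and 13.8 in B-1b, and its groups overlapped. Read per heavy chain, the ratio of Slc7a7 to Slc3a2 was 0.150 and 0.312 in B-1a and 0.645 and 0.560 in B-1b, while that of Slc7a5 to Slc3a2 was 0.270 and 0.404 in B-1a and 0.465 and 0.339 in B-1b. The first ratio did not overlap between the groups and the second did. The cationic amino acid importer Slc7a1, with 5.06 and 6.38 FPKM in B-1a against 10.5 and 6.24 in B-1b, overlapped as well.

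Slc1a5 (ASCT2), the exchanger of glutamine, had 36.5 and 45.9 FPKM in B-1a against 60.3 and 39.9 in B-1b, and overlapped. The taurine transporter Slc6a6 had 18.2 and 2.16 FPKM in B-1a against 23.1 and 14.8 in B-1b, so that 1 low B-1a library gave its log2 fold change of 1.32 (SE 0.95). Slc43a3 was a low gene, with 1.18 and 1.10 FPKM in B-1a against 3.82 and 2.38 in B-1b. It is counted here through its family number, although its known substrates are purine nucleobases. The 2 members with values below 0 were Slc43a2, a facilitative neutral amino acid transporter (LAT4), with 11.9 and 11.2 FPKM in B-1a against 9.52 and 6.17 in B-1b, and Slc17a9, with 6.14 and 7.27 FPKM in B-1a against 4.37 and 4.47 in B-1b. Slc17a9 loads ATP into vesicles and is also placed here by its family number. In both, the B-1b libraries lay below those of B-1a, with limma adjusted p = 0.609 and 0.579.

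**Figure D3:**
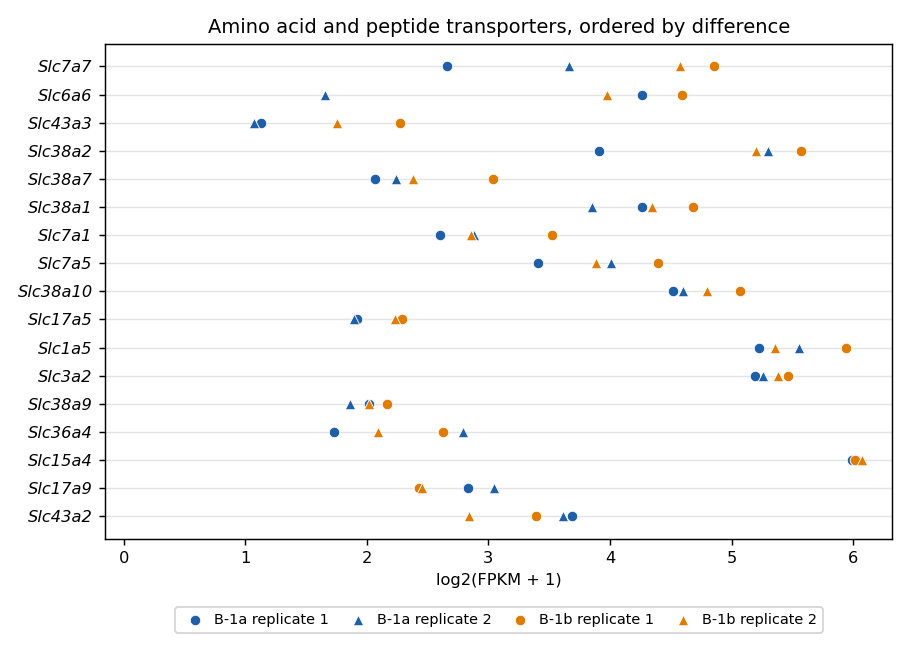
Level of the 17 amino acid and peptide transporters, as log2(FPKM + 1) on the horizontal axis, ordered from the most positive to the most negative difference between B-1b and B-1a, in each B-1a library (blue) and B-1b library (orange), with circles for replicate 1 and triangles for replicate 2. The orange points lie to the right of all blue points for 8 genes, among them Slc7a7 and Slc38a1, and to the left for Slc17a9 and Slc43a2 at the bottom.

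Among the 9 sugar transporters the members differed from each other. Of the 8 that were tested limma called 0, 2 were higher and 1 was lower in both B-1b libraries (25.8% and 17.3% over all genes), and the median log2 fold change was 0.07. Of the 4 GLUT genes, Slc2a1 and Slc2a8 were higher in both B-1b libraries, and Slc2a6 was level, with 11.96 and 9.66 FPKM in B-1a against 10.3 and 11.9 in B-1b. Slc2a3 (GLUT3) had 6.68 and 0.860 FPKM in B-1a against 0.204 and 1.02 in B-1b, with a log2 fold change of -1.28 (SE 0.83) that came from 1 high B-1a library. Summed, the 4 genes had 43.7 FPKM in each B-1a library and 55.8 and 73.2 FPKM in B-1b. Slc50a1, the sugar transporter SWEET1 of the Golgi, had 39.5 and 40.1 FPKM in B-1a against 33.7 and 35.1 in B-1b (log2 fold change -0.21, SE 0.14, limma adjusted p = 0.695). Its summed libraries were close within each group and did not overlap, but its rows lay in opposite directions. Row 2, the highest in every library, had 19.7 and 19.3 FPKM in B-1a against 20.9 and 23.7 in B-1b. Row 1 had 13.2 and 15.4 FPKM in B-1a against 8.16 and 8.69 in B-1b. Row 3 was also lower in B-1b, with 6.63 and 5.42 FPKM in B-1a against 4.66 and 2.65. The ratio of Slc2a1 to Slc50a1 was 0.634 and 0.811 in B-1a and 1.22 and 1.62 in B-1b. The sugar phosphate exchangers Slc37a2 (13.2 to 15.9 FPKM in B-1a against 12.5 to 13.4 in B-1b) and Slc37a4, the glucose-6-phosphate carrier of the endoplasmic reticulum (7.48 to 9.63 FPKM in B-1a against 8.85 to 9.53 in B-1b), overlapped. Slc37a1 was listed at 0 in B-1a replicate 2 and held 2.98 to 4.14 FPKM in the other 3 libraries. Slc45a4 did not pass the filter, being listed at 0 in every library other than B-1a replicate 2 (2.80 FPKM).

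The monocarboxylate transporters did not move as one. Slc16a1 was higher in both B-1b libraries, as described above. Slc16a3 (MCT4), the lactate exporter of glycolytic cells, had 2.34 and 4.29 FPKM in B-1a against 2.65 and 4.13 in B-1b and overlapped, as did Slc16a6, with 1.72 and 5.08 FPKM against 2.64 and 4.29. In each of these 2 genes replicate 2 was the higher library of both groups. The glycolytic enzymes can be set beside them. Of the 18 on the list, 14 were in the table and 13 were tested, limma called 0, 5 (Pfkl, Aldoa, Tpi1, Pgam1 and Ldha) were higher in both B-1b libraries and 0 were lower, against 25.8% and 17.3% of all genes. Their median log2 fold change was 0.08. Ldha, which interconverts pyruvate and lactate, had 296 and 332 FPKM in B-1a against 346 and 431 in B-1b.

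The 24 genes of the mitochondrial Slc25 family took the most FPKM of any group, with 792 and 842 in B-1a and 830 and 913 in B-1b. limma called 0 of the 24, and the median log2 fold change was 0.16. Both B-1b libraries were above both of B-1a for 5, among them Slc25a11, Slc25a16, Slc25a1 and Slc25a33, and below for 2 (Slc25a3 and Slc25a53), shares below the 25.8% and 17.3% of all genes. Slc25a1, the citrate carrier that exports carbon for fatty acid synthesis, had 4.75 and 4.86 FPKM in B-1a against 5.93 and 20.4 in B-1b. Its log2 fold change of 1.07 (SE 0.60) rested on B-1b replicate 2. Slc25a53 had 21.96 and 20.7 FPKM in B-1a against 16.4 and 14.9 in B-1b (log2 fold change -0.43, SE 0.16, limma adjusted p = 0.525).

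Several carriers of the family had a single library apart from the rest. Slc25a4, the second ADP/ATP carrier, had 1.32 and 12.99 FPKM in B-1a against 9.36 and 6.95 in B-1b. Slc25a5 exceeded it in every library. Whether the quantification shared reads between these 2 paralogs was not tested. Slc25a39, which brings glutathione into mitochondria, had 9.98 and 33.96 FPKM in B-1a against 32.6 and 39.6 in B-1b, and Slc25a36, a pyrimidine nucleotide carrier, 0.772 and 8.56 FPKM in B-1a against 9.17 and 8.32 in B-1b. In these 3 genes B-1a replicate 1 was the lowest. Slc25a17, the peroxisomal member of the family, had 29.9 and 27.3 FPKM in B-1a against 34.8 and 7.19 in B-1b, so that here B-1b replicate 2 was the lowest. The carnitine and acylcarnitine carrier Slc25a20 had 38.9 and 28.6 FPKM in B-1a against 23.3 and 34.2 in B-1b and overlapped. The pyruvate carrier subunits outside the family were Mpc1, with 54.9 and 56.3 FPKM in B-1a against 49.5 and 53.2 in B-1b, and Mpc2, which overlapped.

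Of the 19 metal ion transporters, all were tested, limma called 0, and the median log2 fold change was -0.04. Both B-1b libraries were above those of B-1a for 4 and below for 4, near the 25.8% and 17.3% of all genes. The zinc importers of the ZIP family (Slc39) had 9 members, of which 2 had a log2 fold change above 0 and 7 below, with a median of -0.10. The members above 0 were Slc39a4, with 1.55 and 1.16 FPKM in B-1a against 4.77 and 2.47 in B-1b, and Slc39a6, with 5.47 and 11.2 FPKM in B-1a against 12.7 and 11.8 in B-1b. Slc39a7, which releases zinc from the endoplasmic reticulum, had 17.6 and 23.9 FPKM in B-1a against 14.9 and 17.9 in B-1b, and Slc39a10, a ZIP known to be needed for B cell survival, had 6.77 and 4.73 FPKM in B-1a against 6.97 and 4.52 in B-1b. Both overlapped, and Slc39a10 was level to within 0.01 on the log2 scale. Slc39a13 was low, with 2.71 and 1.10 FPKM in B-1a against 0.443 and 0.244 in B-1b. The exporters of the ZnT family (Slc30) numbered 4, and of these Slc30a5 was lower in both B-1b libraries (log2 fold change -0.16, SE 0.15, limma adjusted p = 0.748).

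Slc48a1, the heme transporter HRG1, had 42.2 and 39.2 FPKM in B-1a against 37.1 and 34.9 in B-1b, and its libraries did not overlap (log2 fold change -0.17, SE 0.15, limma adjusted p = 0.725). The copper transporter Slc31a1 was level, with 9.64 and 10.7 FPKM in B-1a against 10.9 and 9.90 in B-1b. The other magnesium transporter of the family, Slc41a1, had 7.66 and 7.10 FPKM in B-1a against 12.3 and 8.40 in B-1b, the opposite direction to Slc41a2. Of 9 metal handling genes listed, 7 were in the table and all were tested, limma called 0, 3 were higher in both B-1b libraries and 1 was lower (25.8% and 17.3% over all genes), with a median log2 fold change of 0.25. Aco1, the iron-responsive aconitase, had 7.08 and 7.35 FPKM in B-1a against 11.9 and 10.1 in B-1b (log2 fold change 0.54, limma adjusted p = 0.507).

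The 11 transporters of inorganic ions had a median log2 fold change of 0.06, with 2 higher and 2 lower in both B-1b libraries (25.8% and 17.3% over all genes) and 0 called by limma. Of the 3 phosphate importers 1 was higher and 2 were lower in both B-1b libraries. Slc20a1 (PiT1) had 2.02 and 2.90 FPKM in B-1a against 4.26 and 3.55 in B-1b (log2 fold change 0.51, SE 0.30), while Slc20a2 (PiT2) had 12.05 and 12.4 FPKM in B-1a against 9.80 and 7.39 in B-1b (log2 fold change -0.48, SE 0.21). Neither pair of groups overlapped, and the limma adjusted p were 0.655 and 0.588. Slc34a1, a sodium-phosphate cotransporter, had 3.00 and 3.90 FPKM in B-1a against 1.76 and 2.31 in B-1b (log2 fold change -0.55). Slc9a8, a sodium and proton exchanger, had 7.71 and 2.97 FPKM in B-1a against 10.01 and 4.51 in B-1b, and overlapped.

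Transporters of nucleotide sugars and nucleosides numbered 9, of which 8 were tested, 2 were higher and 2 lower in both B-1b libraries (25.8% and 17.3% over all genes), and limma called 0. Slc29a1 (ENT1), the equilibrative nucleoside transporter, had 15.7 and 20.7 FPKM in B-1a against 11.8 and 13.6 in B-1b (log2 fold change -0.48, SE 0.21, limma adjusted p = 0.588). Slc35a1, which brings CMP-sialic acid into the Golgi, had 11.9 and 8.17 FPKM in B-1a against 12.4 and 17.1 in B-1b (log2 fold change 0.51, SE 0.28, limma adjusted p = 0.641). The first was lower and the second higher in both B-1b libraries. Slc35a3, the UDP-N-acetylglucosamine transporter, was level, with 10.2 and 8.68 FPKM in B-1a against 8.68 and 9.45 in B-1b. Slc35a4, the most abundant of this group, had 38.05 and 46.8 FPKM in B-1a against 48.8 and 39.5 in B-1b and overlapped. Slc35a2, the UDP-galactose transporter, did not pass the filter, with 1.67 FPKM in B-1a replicate 1 and at most 0.554 FPKM elsewhere.

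The 16 transporters of vitamins, lipids and organic ions had a median log2 fold change of 0.04, with 3 higher and 2 lower in both B-1b libraries (25.8% and 17.3% over all genes) and 0 called by limma. Slc19a1, the reduced folate carrier, had 10.9 and 8.41 FPKM in B-1a against 14.6 and 9.41 in B-1b and overlapped. The choline transporter-like genes Slc44a2 (15.4 and 12.5 FPKM in B-1a against 15.4 and 9.62 in B-1b) and Slc44a1 (15.4 and 10.7 FPKM in B-1a against 4.45 and 12.2 in B-1b) overlapped too. The riboflavin transporter Slc52a3 was higher in both B-1b libraries at low levels, with 0.171 and 0.901 FPKM in B-1a against 1.84 and 1.29 in B-1b. Slc14a1, the urea transporter that is abundant in red cells, had 9.40 and 4.87 FPKM in B-1a against 4.62 and 2.82 in B-1b. The globin genes and Alas2 listed as erythroid markers, 3 of 4 in the table, summed to 17.5 and 25.96 FPKM in B-1a against 9.51 and 18.2 in B-1b, and their part in the level of Slc14a1 was not tested. The 4 names that are not transporters had a median of 0.01, and Slc9a3r1 was the most abundant, with 47.7 to 55.7 FPKM.

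**Figure D4:**
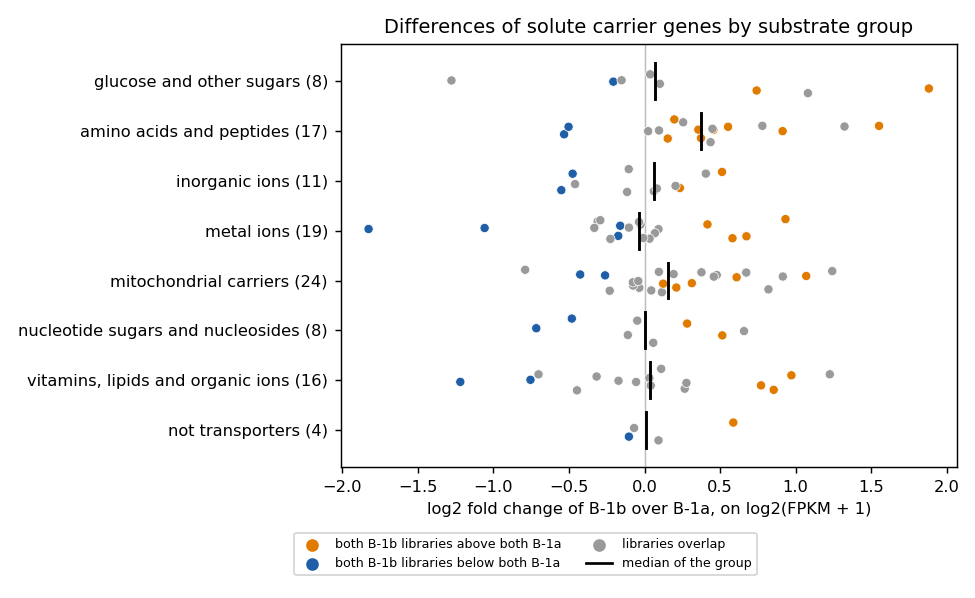
Log2 fold change (B-1b against B-1a, horizontal axis, computed from log2(FPKM + 1)) for each tested solute carrier gene, by substrate group, with the number tested in parentheses and a black bar at the median of the group. Orange points have both B-1b libraries above both B-1a libraries, blue points below, and grey points overlap. The amino acid group has its median at 0.37 with 15 of 17 points above 0, while the other medians lie between -0.04 and 0.16.

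Because the table gives several rows to many genes, the rows were also followed one by one. The 109 genes had 191 rows, 59 genes had 1 row and 50 had several, up to 6. The table does not name the transcript of a row. Tested row by row, limma called 0 of the 160 solute carrier rows that passed the filter, against 6 of the 12137 rows of all genes (0.0494%), and 17 of the 160 had an unadjusted p under 0.05, against 1199 of the 12137, a like share. The row with the highest level was the same in all 4 libraries for 25 of the 50 genes. It changed with the group for 3 (Slc15a4, Slc25a3 and Slc25a51) and with the replicate number for 5, among them Slc35a5, Slc39a9, Slc9a7 and Slc9a8, and the other 17 followed neither.

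Slc15a4 showed this most clearly. Row 2 had 13.2 and 19.3 FPKM in B-1a against 39.6 and 47.5 in B-1b (log2 fold change 1.38, SE 0.26, limma adjusted p = 0.261). Row 3 had 35.8 and 32.2 FPKM in B-1a against 10.1 and 1.68 in B-1b (log2 fold change -2.68, SE 0.77, limma adjusted p = 0.414). The rows were apart in opposite directions while the gene's sum was nearly equal in all 4 libraries. In Slc25a3 row 1 had 74.4 and 63.4 FPKM in B-1a against 39.2 and 32.4 in B-1b (log2 fold change -0.93, SE 0.19, limma adjusted p = 0.288), and row 3 had 36.7 and 42.0 FPKM in B-1a against 41.8 and 66.6 in B-1b. Row 1 did not overlap between the groups and row 3 did. In Slc30a5 row 2 was listed at 0 in both B-1a libraries and had 3.28 and 30.1 FPKM in B-1b (limma adjusted p = 0.446). Its row 3 had 54.5 and 50.7 FPKM in B-1a against 49.03 in B-1b replicate 1 and was listed at 0 in B-1b replicate 2. Row 1 overlapped, with 21.6 and 15.8 FPKM in B-1a against 9.02 and 35.8 in B-1b. The 2 rows that did not overlap lay in opposite directions, and B-1b replicate 2 stood farthest from the rest in both. The smallest adjusted p of any row belonged to row 3 of Slc25a39, with 0.372 and 0.252 FPKM in B-1a against 9.09 and 6.65 in B-1b (log2 fold change 2.75, SE 0.35, limma adjusted p = 0.161). Both rows of Slc2a1 were higher in B-1b. Row 1 had 19.3 and 24.5 FPKM in B-1a against 28.4 and 36.8 in B-1b, and row 2 had 5.79 and 8.04 against 12.96 and 19.9.

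**Figure D5:**
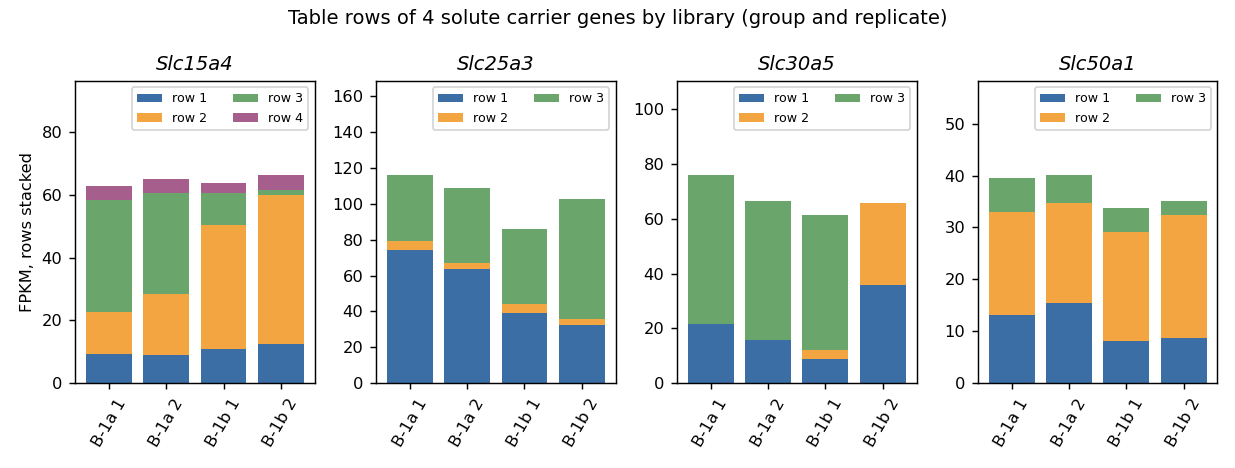
FPKM of the table rows of 4 solute carrier genes, stacked on the vertical axis from 0, in each library named by group and replicate. The height of a bar is the sum used for the gene. In Slc15a4 the sum stays between 62.7 and 66.3 FPKM while row 2 is larger in both B-1b libraries and row 3 is smaller, and in Slc30a5 row 3 is listed at 0 in B-1b replicate 2.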

How the data were processed

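Poly(A) RNA was sequenced from B-1a cells and B-1b cells that had been sorted out of the peritoneal cells of C57BL/6 males. Per the labels and the study's methods, HISAT2 was used by the authors for alignment (GRCm38/mm10), StringTie for quantification and Ballgown for their own tests, with versions not given in the sources used here. No unit is named in the deposited table, and the values were taken as FPKM, 1 per transcript row. They are not counts and show no whole-read steps, so depth is unknown and no counting interval is given. B-1b replicate 3 equals replicate 1 in 13722 of 13747 rows and B-1a replicate 3 equals the mean of replicates 1 and 2 in 13710 (relative tolerance 1e-06), and both relations hold in all 191 solute carrier rows. These columns were left out. There are 0 further columns of sample values.

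All rows sharing a gene name were added up. A gene had to reach 1 FPKM in 2 or more of the 4 libraries to be tested. The test was limma (3.58.1, R 4.3.3) on log2(FPKM + 1), with a trend of the prior on intensity, Benjamini-Hochberg adjustment over all genes and B-1b set over B-1a. Fold changes on this scale understate the change of low genes. The step was tested on simulated data. Tables and figures were made in Python 3.11.15 with pandas 2.3.3, numpy 2.4.6 and matplotlib 3.10.9. Substrate groups followed SLC family numbers. Genes were named where they were among the 3 most abundant of their group, among the 5 smallest p or the 5 largest changes per direction, had rows moving in opposite directions, or are much described in lymphocytes, and further members of a group were named to describe it after their values were seen. Of the lymphocyte genes, Slc7a6, Slc7a11, Slc15a3, Slc12a2, Slc11a2, Slc4a1 and Slc40a1 were not analysed here, and some genes that the rule names are not reported here. All 109 names matched GENCODE M21, and promoter sequences come from RefSeq (GRCm38.p6). The members and lists were chosen with earlier results of these data known. The alternatives were another filter, pseudocount, scaling, prior, set of columns or treatment of rows, a replicate block, and leaving out each library.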

Additional observations from a re-analysis of the deposited data

How the results depend on the processing

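In all 14 other settings except the use of all 6 columns, limma called 0 solute carriers, and their smallest adjusted p lay between 0.211 and 0.515 over genes and was 0.161 over rows kept apart. With all 6 columns limma called 17 solute carriers and 1241 of all genes, with columns that are copies or means of others. Calls over all genes were 8 with no filter, 9 without a trend and 6 with rows kept apart, 14 to 19 under the other filter, pseudocount, scalings and averaging of columns, and 0 with each library left out (537 to 1172 at an unadjusted p under 0.05, with 6 to 13 solute carriers). The deviations of samples with the same number had r = 0.00 over all 7557 genes and r = 0.18 over the 107 solute carriers. With 2 pairs and no label that ties the numbers to an animal or day, they were not taken to pair the samples. With a replicate block limma called 0 genes (614 at an unadjusted p under 0.05) and 0 solute carriers (6).

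At a filter of 10 FPKM, 11 solute carriers were higher (22.9%, against 25.6% of all genes) and 9 lower (18.8% against 18.7%) in both B-1b libraries, and with rows kept apart 42 rows (26.2% against 24.2% of all rows) and 25 rows (15.6% against 17.1%), since fewer genes or more rows were tested. At 10 FPKM the group medians were -0.29 for inorganic ions, 0.033 for metal ions, 0.040 for mitochondrial carriers, -0.058 for sugars, -0.027 for nucleotide sugars and nucleosides and -0.31 for vitamins, lipids and organic ions. With all 6 columns they were 0.014 for metal ions, 0.22 for mitochondrial carriers and -0.068 for nucleotide sugars and nucleosides, a group at -0.048 with no filter and -0.00027 with equal totals without immunoglobulin genes, and the median of vitamins, lipids and organic ions turned to -0.036 (-0.0017 with equal upper quartiles). The median of the tested solute carriers, 0.092 in the fit as reported, was 0.047 both at 10 FPKM and with equal upper quartiles, and that of sugars, 0.069, was 0.037 with no filter and 0.0041 with all 6 columns. With equal upper quartiles, which moved the median of all genes from 0.05 to 0.01, mitochondrial carriers were at 0.11, nucleotide sugars and nucleosides at -0.039, and 14 of 17 amino acid transporters lay above 0. The cause of these shifts was not tested.

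Leaving out 1 library gave 35 to 55 solute carriers higher (32.7% to 51.4%, against 37.5% to 43.9% of all genes) and 22 to 34 lower (20.6% to 31.8% against 27.3% to 33.8%). Their median ran from 0.036 without B-1b replicate 1 to 0.23 without B-1b replicate 2. Group medians ran from 0.18 to 0.55 for amino acids and peptides (13 to 15 of 17 above 0), from -0.08 to 0.22 for sugars, -0.11 to 0.27 for inorganic ions, -0.11 to 0.038 for metal ions, 0.041 to 0.25 for mitochondrial carriers, -0.042 to 0.064 for nucleotide sugars and nucleosides and -0.10 to 0.088 for vitamins, lipids and organic ions. The log2 fold change turned in sign with all 6 columns for Slc16a3 (-0.053) and Slc39a10 (0.074), and with equal upper quartiles for Slc15a4 (-0.022). With a library left out it ranged from -0.0061 to 0.054 for Slc15a4, -0.29 to 0.37 for Slc16a3, -0.62 to 1.97 for Slc25a4, -0.091 to 0.21 for Slc35a4, -0.27 to 0.26 for Slc39a10, -0.16 to 0.97 for Slc9a8, -0.025 to 0.56 for Slc19a1, -0.037 to 0.55 for Slc1a5, -1.01 to 0.12 for Slc10a3, -0.014 to 0.24 for Slc25a5 and -0.49 to 0.14 for Slc44a2. Nearer to 0, without turning, were Slc38a2 (0.084), Slc7a5 (0.14), Slc2a3 (-0.26) and Slc20a1 (0.33) without B-1a replicate 1, Slc38a1 (0.25), Slc35a1 (0.27), Slc39a7 (-0.099) and Slc29a1 (-0.29) without B-1a replicate 2, Slc27a3 (-0.77), Slc41a2 (-0.91), Slc7a5 (0.18), Slc38a1 (0.29) and Slc39a7 (-0.18) without B-1b replicate 1, and Slc25a1 (0.26), Slc43a2 (-0.26), Slc20a2 (-0.29) and Slc35a1 (0.30) without B-1b replicate 2. With 1 library left in a group, that library was assumed to vary like those of the other group.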

Other observations

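Other transport genes, outside the SLC names, were described in the same way. They were taken by name. Names such as Abce1, Abcf1 and Atp6v0c-ps2 were counted, and any that are not transporters were not set apart. Of the 70 ion pumps, ABC transporters, channels and related genes in the table, 67 were tested, limma called 0 at an FDR below 0.05 and had 1 at an unadjusted p under 0.05, 18 were higher and 6 lower in both B-1b libraries, and the median log2 fold change was 0.14. Over all genes the share at an unadjusted p under 0.05 was 9.66%, the share higher in both B-1b libraries 25.8% and the share lower 17.3%. The share of higher genes here was near the background. The share of lower genes and the share at an unadjusted p under 0.05 were below it. Atp1b3, a regulatory subunit of the sodium pump, had 108 and 102 FPKM in B-1a against 119 and 136 in B-1b. The calcium pump Atp2b1 of the plasma membrane had 38.5 and 41.2 FPKM in B-1a against 81.2 and 47.7 in B-1b.

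Of 31 genes of amino acid sensing and stress, 21 were in the table and 20 were tested, with 7 higher and 3 lower in both B-1b libraries (25.8% and 17.3% over all genes), 0 called by limma (1 at an unadjusted p under 0.05) and a median log2 fold change of 0.23. Phgdh, the first enzyme of serine synthesis, had 85.7 and 114 FPKM in B-1a against 136 and 168 in B-1b (log2 fold change 0.61, limma adjusted p = 0.516). Atf4, the transcription factor of the amino acid response, had 32.6 and 33.5 FPKM in B-1a against 27.4 and 32.6 in B-1b.

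A pair of solute carriers followed the replicate number and not the group, by more than 1 on the log2 scale in both groups. Slc39a11 had 21.3 and 1.47 FPKM in B-1a against 19.2 and 0.722 in B-1b, and Slc9a7 had 2.49 and 11.04 FPKM in B-1a against 2.73 and 8.61 in B-1b. That was 2 of 107 solute carriers (1.87%) against 152 of all 7557 genes (2.01%).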
